A study of Mus musculus with 2 samples.

Results

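Processed pseudogenes are copies of messenger RNAs in the genome, and 369 of them had at least 20 reads assigned in the cerebral cortex of each of 2 mice. A gene was included when all of its annotated transcripts were of the processed pseudogene or transcribed processed pseudogene type and its expected count (the estimated number of reads it received) was at least 20 in both mice. This selected 369 of 10004 processed pseudogenes (3.69%), themselves part of 55536 annotated genes. The expected counts of the alignment-based gene table chose the members, so their size is a description. Total RNA came from the left cerebral cortex of 2 male B6CASTF1/J mice, hybrids of the B6 and CAST strains, at 36 days of age, with 1 library per mouse from 300 ng of RNA, reduced in ribosomal RNA and carrying ERCC spike-ins. Both mice belong to 1 group without treatment, and the labels give them the same donor identifier but call them separate animals, so no comparison between conditions exists and differences between the mice have no p-value. They are called mouse 1 and mouse 2 after their replicate numbers.

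A processed pseudogene arises when a spliced messenger RNA is copied into DNA by the reverse transcriptase of a mobile element and inserted at a new place. The copy carries no introns and as a rule no promoter of its parent gene, and it gathers mutations with time. Genes that are highly transcribed in the germ line, such as those of ribosomal proteins and glycolytic enzymes, have left many copies. A read from the parent can therefore match the copy, which makes the level of a pseudogene harder to estimate than that of an ordinary gene.

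The total expected count was 29915463 in mouse 1 and 27988085 in mouse 2. Transcripts of excitatory neurons (Slc17a7, 599 and 563 TPM), inhibitory neurons (Gad1, 150 and 173 TPM), oligodendrocytes (Mbp, 576 and 497 TPM), astrocytes (Slc1a2, 843 and 769 TPM) and microglia (Csf1r, 33.7 and 32.5 TPM) were present, where TPM is a level per transcript length and per library total. The cerebellar gene Barhl1 was listed at 0 in both mice and the liver gene Alb at 0 and 0.03 TPM. The choroid plexus gene Ttr was at 8.60 and 5.35 TPM and the heart myosin gene Myh6 at 1.62 and 2.28 TPM.

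How much of a pseudogene differs from its parent varied widely among the members, and 4 pairs show the range. Each pair gives 100 bases of the coding part of the parent transcript and the aligned bases of the pseudogene, from the GENCODE M21 transcript sequences (mm10), as the gap-free window with the most differing bases. Capitals mark the bases that differ within a pair.

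Rps23-ps1 (chr3:37714740-37714839, plus strand) is a full match of the ribosomal protein gene Rps23 and shows no capital in this window, which begins at the start codon. It is shown as a copy whose reads cannot be told from its parent's by sequence.

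Rps23-ps1: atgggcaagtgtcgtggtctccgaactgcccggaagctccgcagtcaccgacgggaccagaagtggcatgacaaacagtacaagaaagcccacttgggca
Rps23: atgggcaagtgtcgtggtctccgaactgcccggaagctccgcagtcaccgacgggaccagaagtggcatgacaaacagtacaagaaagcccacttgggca

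Gm15459 (chr5:5783442-5783541, minus strand) is a copy of Hspa8, the constitutive cytosolic heat shock protein, and had the most reads of all members. It lies opposite an exon of Gm26825 on the other strand. It differs from Hspa8 at 5 bases over 1941, of which this window holds 1.

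Gm15459: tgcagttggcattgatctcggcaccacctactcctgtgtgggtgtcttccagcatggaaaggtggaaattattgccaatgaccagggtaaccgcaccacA
Hspa8: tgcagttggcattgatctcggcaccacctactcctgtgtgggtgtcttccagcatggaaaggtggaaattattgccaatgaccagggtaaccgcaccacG

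Glns-ps1 (chr11:19721194-19721293, plus strand) is a copy of Glul, the glutamine synthetase of astrocytes. This window holds 5 differing bases.

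Glns-ps1: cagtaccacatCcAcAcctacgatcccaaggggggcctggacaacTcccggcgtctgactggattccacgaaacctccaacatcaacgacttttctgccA
Glul: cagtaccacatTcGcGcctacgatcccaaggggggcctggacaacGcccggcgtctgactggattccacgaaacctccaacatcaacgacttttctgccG

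Gm8855 (chrX:87673502-87673601, minus strand) lies in an intron of Il1rapl1 on the same strand and resembles Phb, which encodes the mitochondrial scaffold protein prohibitin. This window holds 22 differing bases and shows a diverged copy whose reads can be told from those of Phb.

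Gm8855: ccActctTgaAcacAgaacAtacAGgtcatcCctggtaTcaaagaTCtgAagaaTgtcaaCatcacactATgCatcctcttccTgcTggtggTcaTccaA
Phb: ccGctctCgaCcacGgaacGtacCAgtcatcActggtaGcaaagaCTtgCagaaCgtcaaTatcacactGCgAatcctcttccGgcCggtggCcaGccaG

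Processed pseudogenes that reached the minimum were mostly close copies. The closest named coding transcript (here called the parent) was found for 366 members and for 8750 of the other processed pseudogenes. The median identity was 99.2% (quartiles 97.4% and 99.8%) among members and 89.5% (quartiles 83.4% and 94.6%) among the others. An identity of at least 99% was found for 197 members (53.8%) and 339 others (3.87%), and 53 members were identical to their parent over their whole length, against 50 of the others. At the other end, 27 members were under 90% identical, down to 72.5%. Since the expected count that chose the members can include reads of the parent, these figures describe the selection and were not tested.

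**Figure D1:**
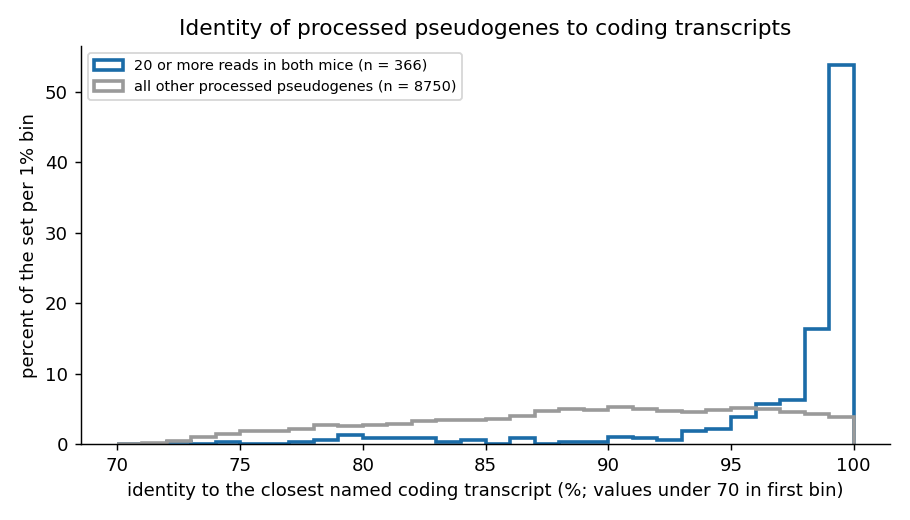
Percent of each set (y axis) per 1% bin of identity to the closest named coding transcript (x axis), for 366 members and 8750 other processed pseudogenes with a match. The members pile up in the last bin (median 99.2%), while the others are spread broadly around a median of 89.5%.

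Sequence that is found nowhere else was scarce in the members. A window of 100 bases was called unique when no transcript of another annotated gene held the same bases on the same strand. The median share of unique windows was 44.1% in members and 100% in the other processed pseudogenes. No unique window at all was found in 66 members (17.9%) and in 259 others (2.70%). At least 75% unique windows were found in 117 members. These were 1.39% of the 8411 processed pseudogenes with as many, whereas members were 3.69% of all processed pseudogenes. In 45 members every window was unique.

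Many members held an open reading frame close to the parent's coding length. The longest frame from a start codon reached at least 95% of the parent's coding length in 180 of 366 members (49.2%) and in 808 of 8750 others (9.23%). Among copies of at least 99% identity the shares were 143 of 197 members and 172 of 339 others, at 95 to 99% identity they were 32 of 118 and 389 of 1665, and at 90 to 95% they were 0 of 24 and 175 of 2139. Under 90% identity they were 5 of 27 and 72 of 4607. The longest frame of Gm15459 had 1941 bases, as many as the coding part of Hspa8. That of Glns-ps1 had 82.6% of the coding length of Glul, and that of Gm8855 had 15.8% of that of Phb. The longest frame was taken in any forward frame and could run to the sequence end without a stop. It was not compared with the parent's own frame. That of BC022960, which resembles Pphln1, was 206% of the parent's coding length. A frame in the sequence says nothing of translation, which was not measured.

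The members made up a small part of each library. They took 0.316% of all expected counts in mouse 1 and 0.306% in mouse 2, and 91.9% and 90.1% of what all processed pseudogenes received. Most processed pseudogenes, 7384 (73.8%), had 0 counts in both mice. The median member had a mean count of 89.7, 166 members reached a mean of 100 and 14 reached 1000, and the 10 highest held 34.5% and 32.1% of the members' counts. All members had 1 annotated transcript, 353 had a single exon, and the median length was 781 bases (519 in the other processed pseudogenes). They lay on 20 chromosomes, 25 of them on X. Just inside the minimum were Gm18706 (26 and 20 counts), Gm45380 (29.2 and 20.1) and Gm5828 (20.1 and 22.0), and just outside it were Gm18588 (19.9 and 33.4), Gm43213 (19.7 and 22.1) and Gm7329 (27.5 and 19.7).

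Names and sequences mostly gave the same parent. A symbol ending in -ps was carried by 76 members of 70 symbol families, in which the stem names the parent, while 269 had a predicted gene name beginning with Gm. The sequence parent had the stem's symbol in 65 of the 76. In the other 11 the symbol differed, as with Glns-ps1, whose stem is an older name of the gene now called Glul. Actg-ps1 and Amd-ps3 likewise matched Actg1 and Amd1. Pabpc1l2b-ps matched Pabpc4, a poly(A)-binding protein gene, at only 77.9% identity. The 366 members came from 293 parents, of which 247 had a single member.

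Ribosomal protein genes were the largest parent class. Their 81 member copies were 22.0% of the members, close to their 22.9% among all processed pseudogenes, and held 29.5% and 29.9% of the members' counts. Copies of chaperone and prolyl isomerase genes were 10 members (2.71% against 2.28% of all) with 17.3% and 14.9% of the counts, most of it on Gm15459. Cytoskeletal genes had 12 members with 7.68% and 7.78% of the counts, and they were 3.25% of members against 1.23% of all processed pseudogenes. The 15 translation factor copies held 3.64% and 3.85% of the counts and were 4.07% of members against 1.95% of all. The 16 glycolytic copies held 4.33% and 4.88% and were 4.34% of members against 4.86% of all. RNA-binding and nucleolar genes had 15 members (4.07% against 2.70%), and genes of oxidative phosphorylation (2.71% against 2.40%) and of ubiquitin and the proteasome (2.71% against 1.76%) had 10 each. Another 188 members fell in none of the classes searched. For Gm43580, Gm14021 and Gm715 no named parent was found.

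The single highest member was Gm15459, with 10872 reads in mouse 1 and 8101 in mouse 2. The read-based quantification, made from the reads without the alignment, gave it 9977 and 7456. The 2 tables put it at about the same level, and both gave less in mouse 2. Only 17.7% of the windows of Gm15459 were unique, so most of them were shared with other annotated genes. The parent Hspa8 had 37651 and 29845 reads.

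Gm10123, a copy of the cyclophilin A gene Ppia, came next with 3156 and 2876 reads. The read-based table gave it 0 in both mice. Gm10123 was identical to Ppia over its 490 bases and had no unique window. Gm14150, a copy of the alpha-tubulin gene Tuba1b, had 3062 and 2771 reads against 36.2 and 27.3 in the read-based table, although 45.6% of its windows were unique. Gm3226, another Tuba1b copy, had 1708 and 1640 reads against 1552 and 1450. The 2 tubulin copies, 98.6% and 98.7% identical to the same parent, thus stood on opposite sides of the 2-fold line between the tables. Gm3226 overlaps an exon of another gene on the same strand, while Gm14150 lies between genes.

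Among copies of ribosomal protein genes, Rps2-ps13 had 2795 and 2407 reads and Rpl3-ps1 had 2691 and 2426. The read-based table kept Rpl3-ps1 at 2628 and 2422 and Rps2-ps13 at 1715 and 1537. Only 5.22% of the windows of Rpl3-ps1 and 23.5% of those of Rps2-ps13 were unique. Rps23-ps1 had 2019 and 1820 reads but 0 and 0 in the read-based table. Gm7536, identical to Rpl27a, had 1006 and 1028 reads against 289 and 251, and Rps3a2 had 1036 and 934 against 416 and 326. All of these sit within the protein-making machinery, yet the read-based table left them anywhere from nothing to nearly all of their reads.

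Of the remaining high members, Gm13509 is a copy of Ap2m1 (a clathrin adaptor subunit), with 2253 and 1965 reads against 1591 and 1304. Vcp-rs, a copy of the segregase gene Vcp on the X chromosome, had 2289 and 1834 against 1973 and 1500. Gm4735, which resembles the enolase gene Eno1b, had 1807 and 1602 against 1512 and 1373. These 3 stayed within 2-fold between the tables. Atp6v0c-ps2 copies a proton pump subunit and had 1590 and 1452 reads. Morf4l1-ps1 copies a chromatin protein gene and had 1137 and 1181 reads. Both were at 0 in both mice in the read-based table, although 27.3% of the windows of Atp6v0c-ps2 and 13.0% of those of Morf4l1-ps1 were unique. Gm8399, an Actg1 copy that overlaps an exon of another gene on the same strand, had 1042 and 1048 reads against 461 and 480.

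**Figure D2:**
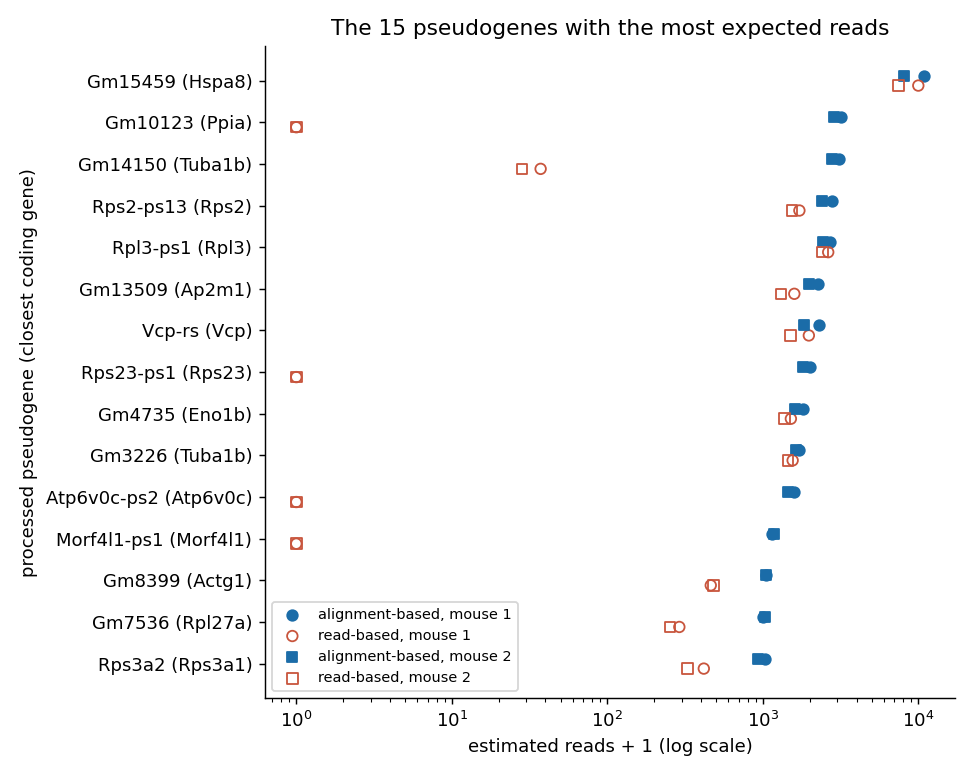
Estimated reads plus 1 (x axis, log scale) for the 15 members with the highest mean expected count (y axis, parent in brackets), in both tables and both mice. Filled marks of the alignment-based table stand between 934 and 10872 reads, while 4 of the 15 members stand at 0 in the read-based table.

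Per length, short copies ranked higher. On the TPM scale Gm10123 was highest (410 and 400.1 TPM), followed by Gm12338 (397 and 339 TPM), a copy of 192 bases identical to Cox7c, which encodes a subunit of cytochrome oxidase. Gm47441, 117 bases identical to part of Tecr, had 322 and 336 TPM from 114 and 111 reads. TPM divides here by a length 99 bases shorter than the transcript, which leaves few bases in a copy of 117. Rpl31-ps8 and Rpl28-ps1 had 160 and 179 TPM and 143 and 156 TPM. Gm12338, Gm47441, Rpl31-ps8 and Rpl28-ps1 were all identical to their parents and at 0 reads in the read-based table in both mice.

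Of the 64 processed pseudogenes of the transcribed type 7 were members (10.9%), against 362 of 9940 of the other type (3.64%). The 7 members of the transcribed type had a median count of 47.0, against 90.3 in the 362 others. Gm12346, a copy of the heat shock gene Hsp90aa1, had 506 and 443 reads against 582 and 536 in the read-based table. Gm15725 (nearest to Actb) had 317.7 and 255.6 against 459 and 357, and Gm7666 (Phb) 294 and 221 against 120 and 105. BC022960 (Pphln1) had 36 and 58 against 32 and 59, and Gm29036 (Polr3f) had 21 and 27 against 19 and 21. Ywhaq-ps3 had 42.2 and 32.5 against 3.32 and 7.67, and Gm14121 (Btbd1) had 23.1 and 27.7 against 69.0 and 60.0. Gm15725, which overlaps a same-strand exon, had no unique window. None of the 7 was at 0 in the read-based table, whereas 99 of the 362 were. The 7 were also longer, with a median of 1090 bases against 766.5. Among all members, 52 of 59 under 400 bases were at 0, against 3 of 108 of 1000 to under 2000 bases.

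The tables differed for many members. Only 183 members (49.6%) also had at least 20 reads in both mice in the read-based table, whereas 99.3% of 13613 protein-coding genes chosen by the same minimum did. The ratio of the tables was computed from mean counts and centred on those protein-coding genes. By it 158 members (42.8%) were within 2-fold, 203 (55.0%) were lower in the read-based table and 8 (2.17%) were higher. Among the protein-coding genes 0.661% were lower and 0.654% were higher by that much. The median log2 ratio was -1.33 over members, with quartiles of -6.51 and -0.31, and 99 members were at 0 reads in both mice in the read-based table. On deposited TPM plus 1 the median was only -0.21, and it was -0.78 after centring on the protein-coding genes. On TPM plus 1 without centring 192 members, the larger part, were within 2-fold. TPM divides by an effective length, which is 99 bases shorter than the transcript in the first table and, at the median, 344 and 340.1 bases shorter in the second. Across members Spearman's rho between the tables was 0.27 (n = 369), and across protein-coding genes it was 0.99 (n = 13613), both over genes that share the same 2 libraries.

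**Figure D3:**
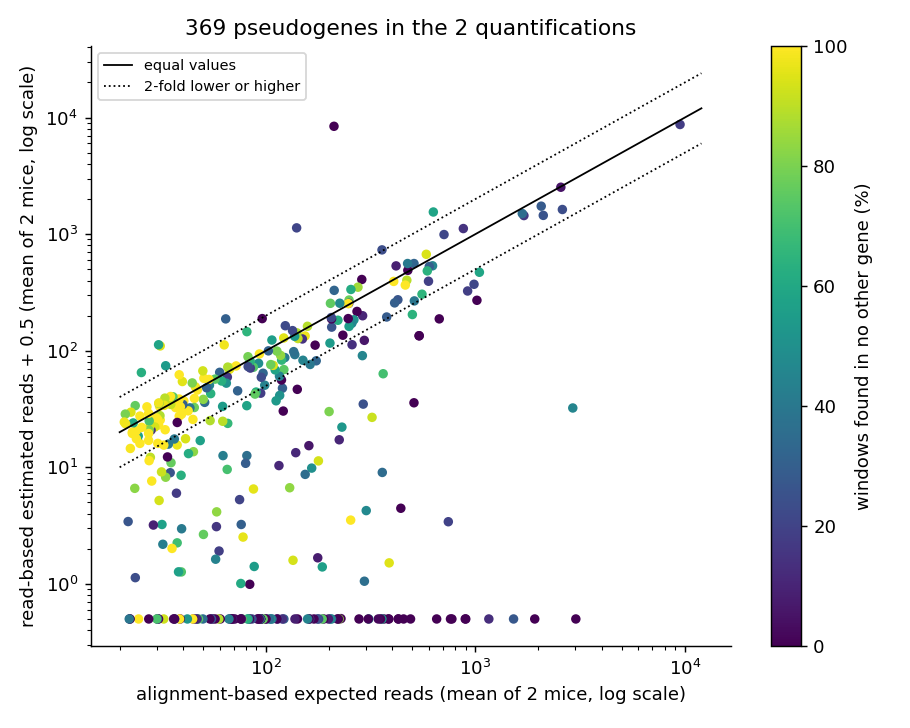
Mean expected reads in the alignment-based table (x axis, log scale) against mean read-based estimated reads plus 0.5 (y axis, log scale) for 369 members, coloured by their share of unique windows, with lines of equality and of 2-fold differences. A row of members lies at 0 on the y axis (99 in both mice), most of them dark, and the members with many unique windows gather near the line of equality at low counts.

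The share of members within 2-fold was higher with more unique sequence and with more length. The order of the members was less tied to it: Spearman's rho between the tables was 0.38 in the 117 members with at least 75% unique windows and 0.29 in the 85 with under 10%. Within 2-fold were 9 of 66 members without a unique window, 20 of 63 with up to 25%, 27 of 69 with 25 to 50%, 23 of 54 with 50 to 75% and 79 of 117 with at least 75%. By length, 2 of 59 members under 400 bases, 19 of 76 of 400 to under 600, 49 of 106 of 600 to under 1000, 71 of 108 of 1000 to under 2000 and 17 of 20 of at least 2000 bases were within 2-fold. Each held within the other: among members of at least 1000 bases the counts were 16 of 30, 24 of 40 and 48 of 58 for under 25%, 25 to 75% and over 75% unique windows, and among those under 600 bases they were 5 of 69, 10 of 45 and 6 of 21. Of the 53 members identical to their parent, 38 were at 0 in both mice in the read-based table. The deposited posterior SD of the count, an estimate of the error from dividing shared reads, was a median of 18.6% of the count in members without a unique window, 2.70% in those with at least 75%, and 0% in the protein-coding genes.

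Most ribosomal copies were lower in the read-based table. Of 81 of them 62 lay below the 2-fold line and 34 were at 0, at a median length of 472 bases and 26.8% unique windows. Of the 10 copies of oxidative phosphorylation genes, 8 were lower and 7 at 0, at a median length of 366 bases. Of the 15 translation factor copies, at a median of 1236 bases, 8 were within 2-fold and 7 lower. Over all members 42.8% were within 2-fold and 55.0% were lower, and no class was tested against the rest.

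The 5 largest falls in the read-based table were those of Gm10123, Rps23-ps1, Atp6v0c-ps2, Morf4l1-ps1 and Rpl31-ps8, all at 0 there. The largest rise was Gm7336, one of 380 processed pseudogenes of the glycolytic enzyme gene Gapdh. It had 174 and 248 reads in the alignment-based table and 8724 and 8103 in the read-based table. Over 1232 bases it differs from Gapdh by 1 base and 2 gap positions, and only 0.265% of its windows were unique. Rpl19-ps11, which overlaps an exon of another gene on the same strand, followed with 145 and 135 reads against 1180 and 1082. Gm4798, a copy of the transcription factor gene Etv5, had 37.1 and 24.3 against 127 and 96.6. Gm5436, a copy of the ATP synthase subunit gene Atp5o, had 33.7 and 28.8 against 98.6 and 120, although 94.9% of its windows were unique. Nudc-ps1 had 87.7 and 40.7 against 176 and 198.

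A parent summed with all of its processed pseudogenes differed less between the tables than the pseudogenes alone. Over 293 families the pseudogenes' sum was within 2-fold between the tables in 133 (45.4%), the parent in 280 (95.6%) and the sum of both in 286 (97.6%). The median absolute log2 ratio was 1.20 for the pseudogenes, 0.11 for the parent and 0.09 for the family. The parent is part of the sum, so the contrast with the pseudogenes alone was partly fixed in advance. The sum differed less than the parent alone in 147 of the 293 families. In the Rpl35a family the log2 ratio was 0.17 for the parent and -0.41 for the sum, in the Rpl13 family -0.46 and -0.77, and in the Rpl7a family -0.0038 and -0.36.

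The Gapdh family differed by over 2-fold even when summed. Its parent had 13544 and 12075 reads against 23742 and 21465, and its pseudogenes 1321 and 1672 against 9704 and 9265. The sum therefore rose by 1.06 on the log2 scale in the read-based table. Its 8 members ranged from 24 and 21 reads (Gm17068) to 200.7 and 293 (Gm10359). Gm12671 has the same sequence as Gm10359, but the alignment-based table gave it 93.7 and 98.1 reads, while the read-based table gave each of them 145 and 231. The posterior SD was 35.3% of the count for Gm10359 and 68.3% for Gm12671.

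In the Rpl21 family the pseudogenes took 60.7% and 59.1% of the family's reads in the alignment-based table and 10.4% and 12.7% in the read-based table, while the family's sum differed by only -0.12 on the log2 scale. Gm13370 and Gm10240, which share 1 sequence, each had 642 and 435 reads. Gm10095 had 323 and 268. Gm5857, whose windows were 99.7% unique, had 30.0 and 30.9.

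The 5 Rpl35a copies (Gm10243, Rpl35a-ps2, Rpl35a-ps3, Rpl35a-ps4 and Rpl35a-ps6) are identical to each other over 333 bases on 5 chromosomes, and each received 98.31 and 89.99 reads. The read-based table gave all 5 a count of 0. Reads cannot tell these 5 loci apart, and their posterior SD ranged from 74.5% to 93.3% of the count.

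Copies of Eef1a1, the elongation factor that brings aminoacyl-tRNA to the ribosome, were long and distinct. Gm6548 had 414 and 400.1 reads against 396 and 389, and Gm13456 had 209 and 197 against 262 and 247. AC133509.1 had 325 and 317 against 27.6 and 25.1, although 92.1% of its windows were unique. Among the 4 Actg1 copies Gm8399 was highest, and Actg-ps1 had 62.5 and 51.6 against 64.5 and 48.6. All 4 overlap an exon of another gene on the same strand. Among the Rpl13 copies Gm15710 had 922 and 914 against 345 and 305. Among the Npm1 copies, of a nucleolar chaperone, Gm14681 had 89.2 and 98.4 against 0 and 0.

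**Figure D4:**
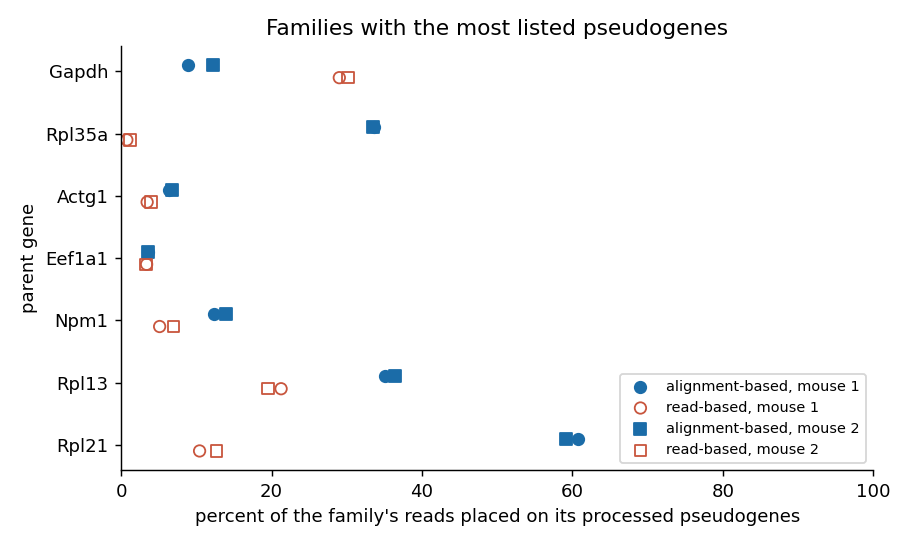
Percent of a family's reads (parent plus all of its processed pseudogenes) that was placed on the pseudogenes (x axis) for the 7 families with the most members (y axis), in both tables and both mice. Rpl21 shows the widest gap, 60.7% and 59.1% against 10.4% and 12.7%, and Gapdh lies on the other side, 8.89% and 12.2% against 29.0% and 30.1%.

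Members that both tables measured alike and that hold mostly unique sequence are singled out here after their values were seen. Glns-ps1 had 675 and 489.9 reads against 774 and 568. Its parent Glul stood at 864 and 816 TPM, and Glns-ps1 at 33.7 and 26.2 TPM. Gm13050, a copy of the translocation factor gene Eef2, had 499 and 427 against 410 and 321. Gm1840, a copy of the glycolytic gene Gpi1, had 452 and 488 against 384 and 420, and Gm12892, a copy of the brain creatine kinase gene Ckb, had 272 and 277 against 353 and 348. Unique sequence did not bring the tables together for every member, since 37 of the 117 members with at least 75% unique windows were lower by over 2-fold in the read-based table and 9 were at 0. Of Rps15-ps2, for example, 94.99% of the windows were unique, and it had 406 and 369 reads against 2.03 and 0. Gm5835, a copy of Rpl4 with 93.7% unique windows, had 173 and 183 against 5.16 and 16.5.

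Most members stood below their parents. On the log2 scale of TPM plus 1 the median member was -2.56 relative to its parent (quartiles -4.12 and -1.29, n = 366), and 122 members were over 10-fold below it in both mice. In the read-based table the median was -4.80. Above the parent in both mice were 24 members, 12 of them by over 2-fold. Of the 24, 13 were identical to the parent over their whole length, so no read can tell them from the parent within that length. Rps23-ps1 stood at 315 and 304 TPM against 93.9 and 84.1 for Rps23.

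6 of the 24 were under 90% identical, and both tables gave reads to these. AC098880.2, which resembles the zinc finger gene Zfp980 at 81.4% identity, had 268 and 226 reads against 273 and 233, while Zfp980 stood at 0.05 and 0.02 TPM. The longest reading frame of AC098880.2 has 1917 bases. AA414768 had 100 and 86 reads against 99.5 and 87.1, and Gm36298, which resembles Zfp935, had 61.9 and 71.7 against 61.0 and 76.1. Pabpc1l2b-ps had 588 and 616 against 499 and 555. Only 29.9% of its windows were unique, so most of them are also held by another annotated gene. These names were chosen after their values were seen. All but 1 of the 27 members under 90% identity were within 2-fold between the tables. Of these 27, 17 lay in an intron of another gene on the same strand, as did 17.3% of all members. Their reads cannot be told from those of the host's unspliced RNA.

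Members lay in same-strand introns more often, and in introns on the other strand less often, than processed pseudogenes at large, shares that were not tested. Between genes lay 231 members (62.6%, against 70.5% of all processed pseudogenes), and in an intron of another gene on the same strand lay 64 (17.3% against 10.2%). Introns on the other strand held 44 (11.9% against 15.2%), exons on the other strand 16 (4.34% against 2.49%) and exons on the same strand 14 (3.79% against 1.57%). Only 2 of those 14 overlapped an exon by at least 0.5 of their length. The 64 in same-strand introns had a median of 95.2% unique windows and 42 were within 2-fold between the tables. Their host genes had a median of 25.03 TPM, and 85.9% of hosts reached 1 TPM. Hosts of the 956 other processed pseudogenes in same-strand introns had a median of 1.84 TPM, and 53.6% reached 1 TPM. Reads of a host's unspliced RNA and reads of a pseudogene in its intron cannot be told apart in these tables.

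The mice gave similar values for most members. The Pearson correlation of log2 counts was 0.96 (n = 369 members, 2 libraries), and the median absolute log2 ratio was 0.22, against 0.11 in the protein-coding genes. Over 2-fold apart were 13 members (3.52%), 7 higher and 6 lower in mouse 2, against 1.18% of all 16044 genes with the same minimum. By the read-based counts 41 members were over 2-fold apart, and 3 of the 166 members with a mean count of at least 100 were so in the alignment-based table. The posterior SD exceeded 25% of the count in 8 of the 13.

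Gm11847, a copy of Hnrnpa3, had 405 reads in mouse 1 and 42.8 in mouse 2 (log2 ratio -3.13), with 33.4 and 0 in the read-based table. Its posterior SD was 34.2% of the count. Gm5559, a Gapdh copy, had 34.3 and 196 reads (log2 ratio 2.59), with 13.3 and 6.43 in the read-based table, so the tables put the higher value in different mice. Rps6-ps4 had 126 and 40.8, Rpl23a-ps3 had 81.3 and 28.6, Gm13394 had 193 and 84.9, and Gm14388 had 46.8 and 21.5. Rps6-ps4 and Rpl23a-ps3 were at 0 in the read-based table in both mice. In the other direction Gm5616, a Snu13 copy, had 51.5 and 110 reads. Gm8741, the other Snu13 member, had 72.0 and 52.65, and the read-based table gave each of them 10.4 and 13.8.

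Members in same-strand introns whose sequence is mostly unique were mostly higher in mouse 2. Gm11400 (in Sfi1) had 24 and 53 reads, Gm8855 (in Il1rapl1) 24 and 52, Gm18398 (in Erc2) 25 and 52 and Gm18981 (in Cacna1c) 25 and 49. All 4 have only unique windows and a posterior SD of 0, and the read-based table gave 40.1 and 83.2, 21 and 51, 29 and 47, and 26 and 48. Of the 35 members in same-strand introns with at least 75% unique windows, 31 were higher in mouse 2, with a median log2 ratio of 0.36, and their summed reads were 39.2 and 52.3 per 1000000 reads. Over all 64 members in same-strand introns 45 were higher in mouse 2, but the summed reads, in which members with shared sequence weigh most, were 418 and 406 per 1000000 reads. Of the 66 such members between genes 33 were higher in mouse 2, with a median of -0.01 and 248 and 249 per 1000000 reads.

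Processed pseudogenes under the minimum were summed in the same way. The 813 processed pseudogenes with at least 75% unique windows in same-strand introns summed to 66.5 and 99.8 per 1000000 reads, against 84.2 and 90.2 for 5884 between genes and 15.2 and 16.2 for 1327 in introns on the other strand. The 200 opposite an exon also stood higher in mouse 2, at 5.15 and 7.29 per 1000000 reads, and of their 13 with a mean count of at least 5, 9 were higher (median log2 ratio 0.55, against 0.57 for 168 in same-strand introns). An exon overlap was called before an intron, so some of these 200 may also lie in same-strand introns. Of the 4 members opposite an exon with at least 75% unique windows, 2 were higher in mouse 2. The 32 host genes of the 35 members had a median log2 ratio of 0.01, with 18 of 32 higher in mouse 2. This pattern was noticed in the data, it compares 2 libraries, and its cause was not tested.

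**Figure D5:**
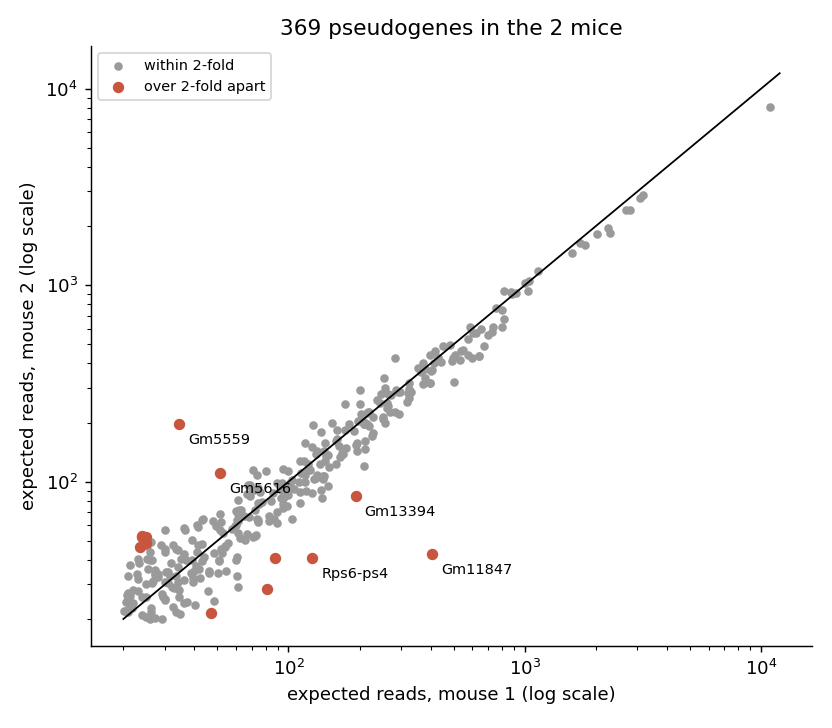
Expected reads of 369 members in mouse 1 (x axis, log scale) and mouse 2 (y axis, log scale), with the line of equality and the 13 members over 2-fold apart in red, 5 of them named. Gm11847 (405 and 42.8 reads) and Gm5559 (34.3 and 196 reads) lie farthest from the line.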

How the data were processed

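Gene-level and transcript-level tables of 2 cortex libraries were used, made for mm10 with GENCODE M21 according to the deposited listing. The sources used here do not name the aligner or the quantification tools. The authors' alignment-based gene table holds deposited expected counts (not normalized, shared reads divided by an estimate), deposited TPM and the posterior SD of the count. The authors' read-based transcript table holds deposited estimated counts and deposited TPM, summed here per gene.

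Parents were found with BLAST+ 2.17.0 (megablast, word size 16, plus strand, e-value 1e-10) as the best-scoring named protein-coding transcript of another locus. Unique windows of 100 bases required exact identity, so a window can differ from another gene by 1 base. Count ratios used library totals and a prior count of 0.5, and TPM ratios a pseudocount of 1. The posterior SD compared is the mean over the mice. edgeR 4.0.16 and DESeq2 1.42.0 in R 4.3.3 gave alternative scaling factors only, from expected counts rounded to whole numbers. All other steps ran in Python 3.11.15 (pandas 2.3.3, numpy 2.4.6, matplotlib 3.10.9) and were first tried on simulated data with known answers.

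The members, parent classes and alternatives were chosen with earlier results of these data known. Named members are the 15 highest by count and 10 by TPM, all of the transcribed type, the 5 most different between tables and between mice in each direction, those nearest the minimum and examples of the largest families. Sequence of chromosome 18 was not used here.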

Additional observations from a re-analysis of the deposited data

How the results depend on the processing

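With 2 mice, 1 group and no test, the values describe these libraries, and counts near the minimum carry the largest counting error. A minimum of 50 expected reads gave 238 members, against 369. Of the 369 members, 112 had at least 50 read-based reads in both mice, against 183 with at least 20. At the minimum of 20, without either mouse, the 369 became 414 to 429 and the 183 became 194 to 195. The median log2 ratio of the tables, -1.33, was -1.23 without centring, -0.21 on TPM plus 1, -0.26 on TPM plus 0.1 and -0.78 on centred TPM plus 1, an alternative chosen after seeing the data. Without either mouse it ranged from -1.37 to -1.24, and members within 2-fold between the tables, 158, from 160 to 161, against 192 on TPM plus 1. Members over 2-fold apart between the mice, 13, numbered 3 at a mean count of at least 100 and 41 in the read-based table. The median ratio to the parent, -2.56, was -2.70 with TPM plus 0.1, -4.80 in the read-based table, -2.50 with unnamed coding genes allowed as parents (also chosen after seeing the data), and ranged from -2.56 to -2.51 without either mouse. Overlaps with a same-strand exon fell from 14 to 2 when at least 0.5 of the length was required. The ribosomal copies' share of counts, 29.7%, was 31.3% among members that reached a mean of 100. The other alternatives moved counts by less than 1.5 times. No paired analysis was possible because the design holds 1 group.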

Other observations

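The minimum of 20 expected reads leaves out pseudogenes that reach 20 reads in the other table alone. By the read-based counts 303 processed pseudogenes had at least 20 reads in both mice, of which 120 were not members. Of the 120, 31 had under 1 expected read in both mice. These 120 summed to 30106 mean reads there and to 349.8 mean expected reads in the alignment-based table. The highest were Gm48132 (1424 and 2072 read-based reads, 3.00 and 4.00 expected reads) and Gm48416 (1097 and 1553, 3.00 and 0). Over all processed pseudogenes the read-based total was 86.5% and 101% of the alignment-based total, and over the members it was 62.03% and 61.8%.

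Of the 12 members with at least 75% unique windows, tables within 2-fold and a reading frame of at least 95% of the parent's coding length, the highest after AC098880.2 were Gm5525 (an Eef1g copy, 163 and 153 reads), Rps12-ps10 (141 and 143), Gm5514 (an Ldhb copy, 159 and 122) and Gm8394 (a Psma5 copy, 117 and 108).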
